A study of Mus musculus with 20 samples.

Results

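Muscle MP cells are the main population of cells sorted from skeletal muscle. The mice were adults of the inbred strain C57BL/10SnJ. They were profiled on 5 of the 20 arrays of the series and were compared here with each of the 3 other groups of 5 arrays, which were Bone marrow MP, Bone marrow SP and Muscle SP (side population cells of the same tissue), all from adult animals of the same strain. Each array measured the total RNA of 1 sample. The labels name no treatment and no engineered allele for any group, and they do not say how many animals a sample came from, how the tissue was dissociated or whether the samples of a group were sorted separately. The p-values here therefore judge group differences against the scatter of these samples, and part or all of that scatter may be technical. The question asked of the data was which genes set Muscle MP apart from all other populations at once. A probe set was counted as above when its lowest Muscle MP value exceeded the highest value of the other 15 arrays, and as below when its highest Muscle MP value lay under the lowest of those 15. Of 10310 probe sets tested, 232 lay above (2.25%) and 108 lay below (1.05%). Those above carried 208 named genes and those below 92.

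The side population is the small fraction of a tissue's cells that exports a DNA-binding dye, and the main population is the remainder that keeps it. Dissociated skeletal muscle yields a mixture of mononuclear cells: satellite cells, which are the resident stem cells of the fibre and express Pax7, Myf5 and the calcitonin receptor, fibroblast-type cells that make collagen and proteoglycan, endothelial cells and pericytes of the vessels, Schwann cells of the nerves, and resident macrophages and lymphocytes. Bone marrow is dominated by cells of the blood lineages. In bulk RNA of this kind, fewer cells of a type and less RNA per cell cannot be told apart, so every level below is a level in the sorted mixture.

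The 5 Muscle MP arrays were alike. Their median Pearson correlation across probe sets was 0.971, against 0.942 within Muscle SP, 0.946 within Bone marrow SP and 0.967 within Bone marrow MP. Genes are not independent replicates, and these values are descriptive. Muscle MP arrays correlated at a median of 0.934 with Muscle SP arrays, 0.777 with Bone marrow SP and 0.733 with Bone marrow MP. RNA quality differed between groups. The GAPDH control has probe sets at both ends of the transcript, and the 3' over 5' ratio rises in degraded RNA. As log2 it was 2.66 ± 0.62 (SD, n = 5) in Muscle MP, 3.83 ± 0.61 in Muscle SP (exact permutation p = 0.0238, adjusted 0.0536 over 9 tests), 3.72 ± 0.60 in Bone marrow SP and 2.67 ± 0.72 in Bone marrow MP. The beta-actin ratio was 1.44 ± 0.43 in Muscle MP and 2.52 ± 0.40 in Muscle SP (exact two-sided permutation, adjusted p = 0.0477). With the GAPDH ratio as a covariate, 557 probe sets were called higher and 409 lower in Muscle MP than in Muscle SP, against 685 and 526 without it.

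All values that follow are log2 signals after quantile normalization of the arrays, with a floor at 6.71, and all 3 comparisons share the same Muscle MP arrays. A difference is Muscle MP minus the other group, given with its standard error, and adjusted p-values come from limma over all 10310 probe sets. Where the other group lay wholly at the floor the difference is a lower bound and is written with "at least". Where only some of its arrays lay there, the difference and its standard error may both be too small. Against Muscle SP, 685 probe sets were higher in Muscle MP (6.64%) and 526 lower (5.1%). Against Bone marrow SP 2047 were higher (19.9%) and 2590 lower (25.1%), and against Bone marrow MP 2151 were higher (20.9%) and 2644 lower (25.6%). Counts of called list members below are to be read beside these shares. The split against the marrow groups moved with the scaling of the arrays. Against Bone marrow SP higher calls were 44.1% of all calls, 33% without normalization and 51.4% after scaling to a common median. The median difference of all probe sets was -0.15, -0.34 and -0.09 in these 3 settings. Against Bone marrow MP higher calls were 44.9%, 52.5% and 40.6%, and the median difference was -0.14, -0.05 and -0.20.

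Muscle SP was the nearest group for most genes above all other arrays. Its mean was the closest to Muscle MP for 194 of the 232 probe sets, Bone marrow MP for 22 and Bone marrow SP for 16. The median difference of the 232 was 1.37 from Muscle SP, 2.51 from Bone marrow SP and 2.60 from Bone marrow MP, and 161, 214 and 207 of them differed by 2-fold or more. These probe sets were picked because their values do not overlap, so their calls are a description: 204 were called against Muscle SP, 232 against Bone marrow SP and 229 against Bone marrow MP. In 35 of them all 10 marrow arrays lay at the floor while Muscle SP did not, and in 7 all 15 other arrays lay at the floor. The gap between the lowest Muscle MP value and the highest other value had a median of 0.35 and reached 1 or more in 43 probe sets (40 genes).

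**Figure D1:**
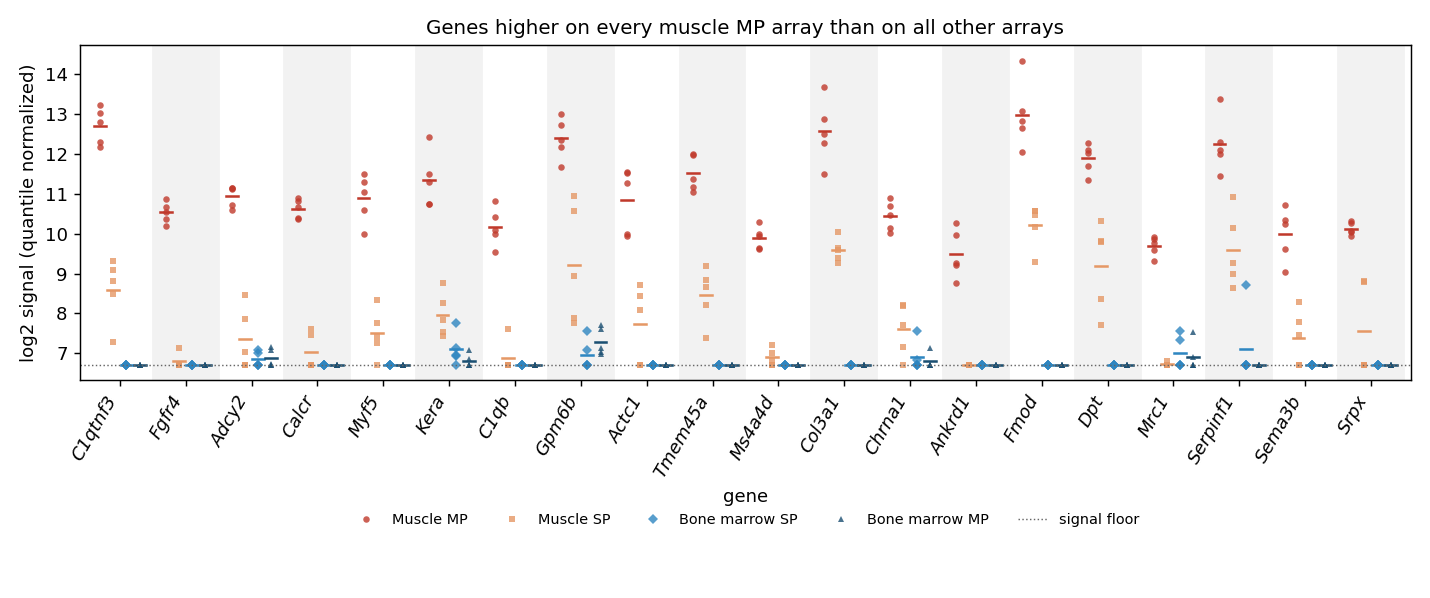
Log2 signal (vertical axis) on each of the 20 arrays for the 20 genes with the largest smallest difference from the other 3 groups, among genes above all 15 other arrays. Points are arrays, short lines are group means of 5 arrays and the dotted line is the signal floor of 6.71. For Fgfr4 the 5 Muscle MP arrays sit between 10.21 and 10.87 and the highest other array at 7.12.

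The widest gap belonged to a satellite cell gene. Fgfr4, a receptor for fibroblast growth factors expressed by satellite cells and myoblasts, read 10.36, 10.21, 10.55, 10.68 and 10.87 on Muscle MP 1 to 5. The same probe set was at the floor on 14 of the other 15 arrays and at 7.12 on Muscle SP 2, which left a gap of 3.09. It was 3.74 ± 0.15 above Muscle SP (adjusted p = 1.132e-13), a 13.4-fold difference, and at least 3.82 ± 0.15 above each marrow group. Calcr, the calcitonin receptor of quiescent satellite cells, read 10.36, 10.40, 10.66, 10.90 and 10.82 on the Muscle MP arrays. It reached 7.61 and 7.45 on 2 Muscle SP arrays and was at the floor on the other 13, so that no array of another group came within 2.75 of Muscle MP. Its difference from Muscle SP was 3.59 ± 0.18 (adjusted p = 9.678e-12).

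Myogenic transcription factors were not all high. Myf5, the factor that marks cells committed to muscle, read 9.99, 11.05, 11.50, 11.30 and 10.60 in Muscle MP and 7.77, 8.34, 7.25, 6.71 and 7.41 in Muscle SP, with every marrow array at the floor. The groups did not overlap, and the difference from Muscle SP was 3.39 ± 0.26 (adjusted p = 8.909e-09). Myog, the factor that drives fusion and differentiation, read 10.28, 11.07, 11.05, 10.81 and 10.86 in Muscle MP, and the highest of the other 15 arrays was Bone marrow MP 2 at 9.18. It was 2.43 ± 0.33 above Muscle SP (adjusted p = 3.233e-05). Myod1, the determination factor of activated myoblasts, read between 9.20 and 9.46 in Muscle MP and between 8.98 and 9.88 in Muscle SP. These ranges overlapped, and its differences of 0.12 ± 0.19, 0.20 ± 0.19 and 0.12 ± 0.19 from Muscle SP, from Bone marrow SP and from Bone marrow MP did not pass the threshold. Pax3 and Myf6 were low, with Muscle MP means of 6.94 and 7.02. Pax7 was not analysed here, and Met, the receptor of hepatocyte growth factor, did not pass the filter.

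Of 25 measured satellite cell and myogenic genes, 9 lay above all other arrays (36%, beside 2.25% of all probe sets) and none below. Against Muscle SP 13 were higher and 1 lower, and against each marrow group 16 were higher and 2 lower. The median differences were 0.94, 1.67 and 0.99 from Muscle SP, from Bone marrow SP and from Bone marrow MP, beside -0.03, -0.15 and -0.14 over all probe sets tested. Chrna1, the alpha subunit of the muscle acetylcholine receptor, was 2.85 ± 0.26 above Muscle SP (adjusted p = 1.713e-07) and more than that above both marrow groups. Cdh15, the M-cadherin of satellite cells, read 8.01, 7.33, 8.31, 8.89 and 8.39 in Muscle MP. It missed the separation through 1 array, Bone marrow MP 3 at 7.41, and was 1.42 ± 0.22 above Muscle SP (adjusted p = 0.0001093). Other genes of the list did not part the muscle populations: Des, the intermediate filament of muscle and smooth muscle, was at -0.34 ± 0.32 and Itga7, the laminin receptor chain of muscle, at -0.20 ± 0.26 from Muscle SP, and Vcam1 at 0.13 ± 0.42. Sdc4, a syndecan of satellite cells, was 1.75 ± 0.29 above Muscle SP (adjusted p = 0.0002804), while its difference of 0.83 ± 0.29 from Bone marrow MP (adjusted p = 0.02258) was lost without Muscle MP 1 (0.70, adjusted p = 0.0661), without Muscle MP 2 (0.67, adjusted p = 0.0734) or without Bone marrow MP 3 (0.75, adjusted p = 0.0543).

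Genes of the contractile apparatus followed in part. Actc1, the cardiac alpha-actin that embryonic and regenerating muscle also uses, read 9.99, 11.52, 11.55, 11.26 and 9.93 in Muscle MP against 8.09, 8.42, 8.71, 6.71 and 6.71 in Muscle SP, and was at the floor in marrow. It was 3.12 ± 0.36 above Muscle SP (adjusted p = 3.823e-06). A brighter second Actc1 probe set also lay above all other arrays, with 1.15 ± 0.25 from Muscle SP (adjusted p = 0.004155), a call lost with the GAPDH covariate (0.94, adjusted p = 0.0619). Ankrd1, a stress-responsive ankyrin repeat protein of heart and muscle, was at the floor on all 15 other arrays and read 8.77, 9.22, 10.27, 9.96 and 9.27 in Muscle MP, at least 2.79 ± 0.20 higher than each group. Atp2a1, the calcium pump of fast fibres, was 2.07 ± 0.31 above Muscle SP (adjusted p = 0.0001035). Myh1, a fast fibre myosin heavy chain, read 7.60, 7.61, 7.47, 7.71 and 7.42 in Muscle MP and 7.18, 7.27, 6.98, 6.71 and 6.71 in Muscle SP, and was at the floor in marrow. The ranges did not overlap, and the difference from Muscle SP of 0.59 ± 0.14 (adjusted p = 0.007678) was lost without normalization (0.39, adjusted p = 0.144), with the floor at the 10th percentile (0.74, adjusted p = 0.0909) and with a pseudocount in place of the floor (0.42, adjusted p = 0.094). Most other fibre genes did not pass the test against Muscle SP. Acta1, skeletal alpha-actin, read 11.52, 12.44, 12.72, 11.88 and 10.51 in Muscle MP and 12.07, 12.39, 12.41, 9.31 and 9.59 in Muscle SP, which overlapped (0.66 ± 0.52, adjusted p = 0.4875). Ckm, the creatine kinase of mature fibres, was at the floor on 3 of 5 Muscle MP arrays and differed from no group beyond the spread between arrays. Of 28 measured muscle fibre genes, 2 lay above all others on their brightest probe set (7.14%, beside 2.25% of all probe sets), and 3 on any. Against Muscle SP 3 were higher and none lower, beside 6.64% and 5.1% of all probe sets. The median difference from Muscle SP was -4e-04.

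The start regions of some of these genes hold sequences that muscle regulators are known to recognise, and they are shown because the genes were higher in Muscle MP. Of 13 named myogenic and muscle fibre members, Ankrd1 included, 11 had an entry in the RefSeq promoter table of GRCm38.p6. The 250 bases before each start were searched on both strands for the E-box CAGCTG (myogenic factors), the element CATTCC (TEAD factors) and the CArG box (serum response factor). None of the matches printed here overlap. The E-box was held by 2 of the 11 genes and by 13% of all 32851 promoters in the table. The TEAD element was held by 2 genes and 12.6% of promoters, and the CArG box by 1 gene and 1.47%. A loose pattern for MEF2, CTANNNNTAG, had 1 match, in Myf5, whose middle letters are not all A or T as in the known site, so it is not printed. Capitals mark the matches in the lines below, which run 5′ to 3′ and end at the base before the start.
Chrna1 (chr2:73580339-73580588, minus strand, E-box): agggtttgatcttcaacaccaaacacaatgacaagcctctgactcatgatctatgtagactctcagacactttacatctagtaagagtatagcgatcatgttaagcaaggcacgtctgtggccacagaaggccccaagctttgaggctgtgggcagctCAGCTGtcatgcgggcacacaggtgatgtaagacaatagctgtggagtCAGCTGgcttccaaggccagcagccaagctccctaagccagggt
Actc1 (chr2:114052876-114053125, minus strand, CArG box): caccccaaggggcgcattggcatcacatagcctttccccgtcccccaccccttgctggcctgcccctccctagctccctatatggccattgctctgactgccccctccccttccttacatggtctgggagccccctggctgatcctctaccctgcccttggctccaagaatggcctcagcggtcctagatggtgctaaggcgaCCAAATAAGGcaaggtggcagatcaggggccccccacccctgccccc
Ankrd1 (chr19:36119845-36120094, minus strand, TEAD element): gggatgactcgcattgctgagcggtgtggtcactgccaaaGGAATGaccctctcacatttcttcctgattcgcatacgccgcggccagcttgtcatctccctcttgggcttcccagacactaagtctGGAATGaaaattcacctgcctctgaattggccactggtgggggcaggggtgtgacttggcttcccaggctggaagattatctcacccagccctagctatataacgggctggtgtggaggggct
The match begins 47 bases before the start in Actc1. Chrna1 has matches at 92 and 44 bases and Ankrd1 at 210 and 123. A match describes letters in this window and no binding was measured.

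Matrix genes were frequent among the genes above all other arrays. C1qtnf3, a secreted C1q and TNF related protein of cartilage and tendon, headed the list by its smallest difference. It read 12.30, 12.80, 13.04, 13.22 and 12.18 on Muscle MP 1 to 5 against 9.31, 9.09, 8.48, 7.28 and 8.81 in Muscle SP, with all 10 marrow arrays at the floor. Muscle MP was 17.3-fold above Muscle SP (4.11 ± 0.28, adjusted p = 1.358e-09) and at least 63.8-fold above either marrow group. Of 38 measured fibroblast and matrix genes, 12 lay above all other arrays (31.6%) and none below. Against Muscle SP 15 were higher and 2 lower, with a median difference of 0.66, and against marrow 33 of 38 (Bone marrow SP) and 31 of 38 (Bone marrow MP) were higher. Dpt, dermatopontin, was 2.69 ± 0.34 and Serpinf1, the secreted pigment epithelium-derived factor, 2.65 ± 0.42 above Muscle SP (adjusted p = 1.22e-05 and 0.0001578). Gsn, the actin-severing gelsolin, was 2.16 ± 0.26 and Gas1, a growth arrest gene that binds hedgehog ligands, 2.04 ± 0.29 above it. A second, dimmer Serpinf1 probe set did not follow (0.48 ± 0.42 from Muscle SP).

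Pdgfra, Cd34 and Dcn, in contrast, did not separate the muscle groups. Pdgfra, the receptor that marks fibro-adipogenic cells, read 11.59, 12.47, 11.17, 11.78 and 11.85 in Muscle MP and 11.24 to 11.44 in Muscle SP, a difference of 0.41 ± 0.30 (adjusted p = 0.4495). Cd34 differed from Muscle SP by 0.36 ± 0.25 and Dcn, decorin, by 0.44 ± 0.27, neither past the threshold. All 3 were well above marrow: Dcn by 6.96 ± 0.27 and 7.92 ± 0.27 and Pdgfra by 3.56 ± 0.30 and 4.08 ± 0.30 from Bone marrow SP and Bone marrow MP.

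Small leucine-rich proteoglycans, which coat and space collagen fibrils, held the highest share of separated genes of the 31 lists. Of 8 measured, 4 lay above all other arrays, namely Fmod, Lum, Kera and Ogn. Fmod, fibromodulin, read 13.07, 12.66, 12.05, 14.35 and 12.83 in Muscle MP and 10.17, 10.46, 9.29, 10.58 and 10.57 in Muscle SP, and was at the floor throughout marrow. Its difference from Muscle SP was 2.78 ± 0.30 (adjusted p = 1.468e-06). Kera, keratocan, read 10.75, 11.51, 10.74, 12.43 and 11.31 in Muscle MP, and no other array exceeded 8.75. Lum, lumican, was 2.38 ± 0.30 above Muscle SP and 6.53 ± 0.30 above Bone marrow SP. The other 4 overlapped with some array: Bgn, biglycan, at 0.53 ± 0.26 and Omd, osteomodulin, at 0.42 ± 0.27 from Muscle SP did not pass, like Dcn, while Chad, chondroadherin, was 1.48 ± 0.23 above Muscle SP (adjusted p = 0.0001523). Muscle MP 4 was the highest of the 5 for Fmod, Kera, Lum and Ogn. It was the highest Muscle MP array for 88 of the 230 probe sets above all others that had no tie, more than any of the other 4 (24 to 50). Leaving that array out gave 242 probe sets above. Fewer Muscle MP arrays then had to clear the others, so that count could hardly fall.

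Separated genes were also found among tendon and cartilage genes and among collagen chains. The lists share members, so their counts are not independent. Kera and Fmod are on both the proteoglycan and the tendon and cartilage lists, and C1qtnf3 is on the latter. Dag1 and Fgfr4 of the satellite cell list are also on other lists. Of 21 measured tendon and cartilage genes, 7 lay above all others (33.3%), and 9 were higher and none lower than Muscle SP. Matn4, a matrilin, was 2.24 ± 0.36 above Muscle SP (adjusted p = 0.0001945). Of 27 collagen chains, 8 lay above on their brightest probe set (29.6%), with 10 higher and 1 lower than Muscle SP. Col3a1, the type III collagen chain, had 3 probe sets and each lay above all other arrays, by 2.99 ± 0.26, 1.71 ± 0.26 and 1.16 ± 0.20 from Muscle SP. Col1a2, a type I collagen chain, showed the largest difference from marrow of all 232 probe sets. It read 15.65, 15.78, 15.37, 16.07 and 15.46 in Muscle MP, 8.59 ± 0.29 above Bone marrow SP and at least 8.95 ± 0.29 above Bone marrow MP. Its smaller difference of 1.30 ± 0.29 from Muscle SP (adjusted p = 0.004713) was lost without normalization (0.85, adjusted p = 0.0774) and with the floor at the 10th percentile (adjusted p = 0.085). Col1a1, the partner chain, lay above on 1 of 2 probe sets: the dimmer was 2.12 ± 0.32 above Muscle SP and separated, the brighter was 1.41 ± 0.34 above it and overlapped on Muscle SP 1 at 15.25. The brighter probe set's call was lost without normalization (1.02, adjusted p = 0.0745). Col14a1 and Col6a1 were 2.04 ± 0.28 and 2.14 ± 0.27 above Muscle SP. Several members are neighbours in the genome. Among RefSeq protein-coding genes 10 runs of adjacent members held 22 of 207 genes, among them Col3a1 with Col5a2, Col6a2 with Col6a1, and Lum with Kera.

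**Figure D2:**
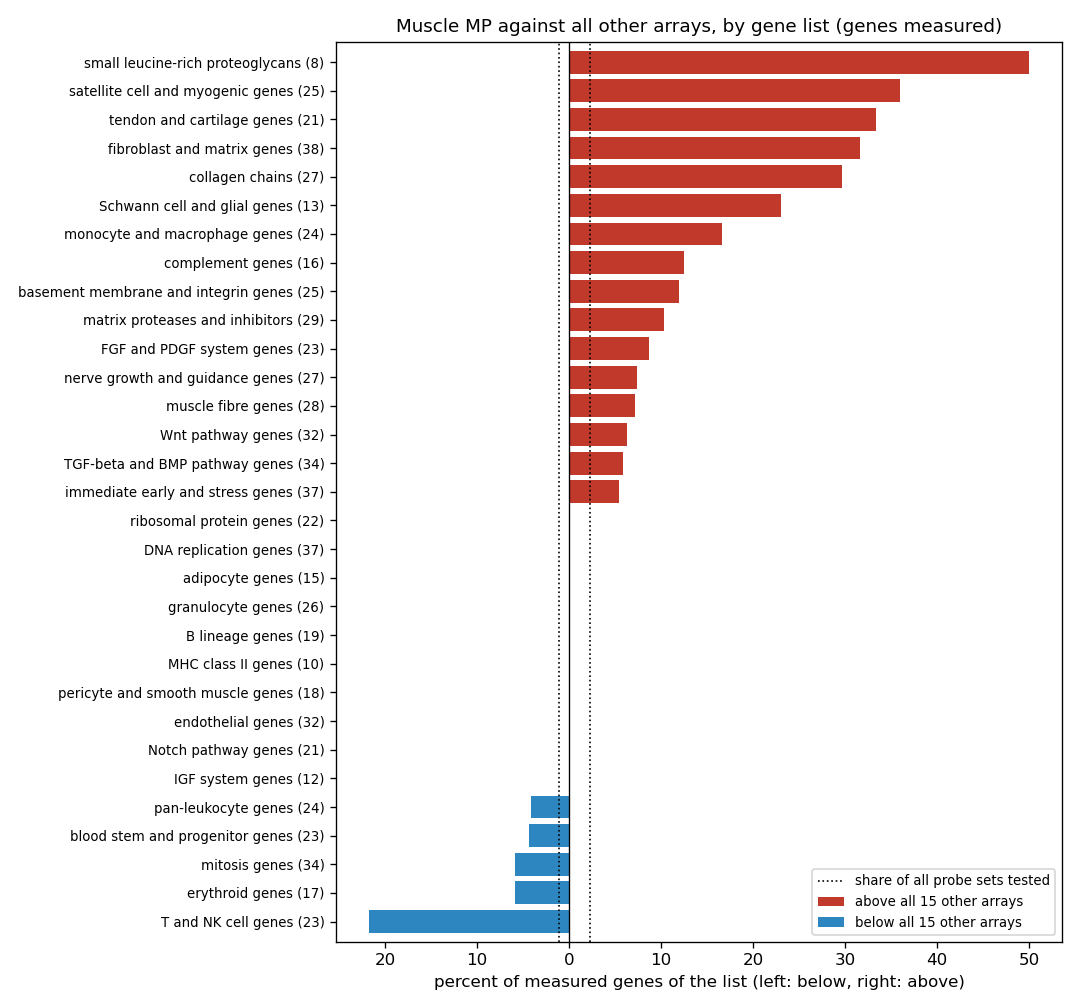
Percent of the measured genes of each of 31 lists (number measured in brackets) whose brightest probe set lay above (right) or below (left) all 15 other arrays in Muscle MP. Dotted lines mark the 2.25% and 1.05% of all probe sets tested; small leucine-rich proteoglycans reach 50% on the right, and 5 of 23 T and NK cell genes lie on the left.

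Secreted proteases, adhesion molecules and signalling genes contributed single members. Ctsk, cathepsin K, was 2.04 ± 0.36 above Muscle SP (adjusted p = 0.0005821), and Mmp3, stromelysin, 1.60 ± 0.22 above it. They and Mmp13, whose separation was lost without normalization and with median scaling, were the 3 of 29 measured proteases and inhibitors above all others. Lama2, the laminin chain of the muscle basement membrane, read 11.68 to 12.34 in Muscle MP and at most 11.12 in Muscle SP, and was at the floor in marrow. Dag1, dystroglycan, which binds that laminin, was 1.53 ± 0.27 above Muscle SP and 4.05 ± 0.27 and 4.64 ± 0.27 above the marrow groups. Sgcb, the sarcoglycan beta chain, was 0.82 ± 0.23 above Muscle SP (adjusted p = 0.02337), a call lost without Muscle SP 1 (0.66, adjusted p = 0.062), Muscle MP 4 (0.79, adjusted p = 0.0561) or Muscle MP 5 (0.78, adjusted p = 0.0529), with the GAPDH covariate (0.89, adjusted p = 0.0581), and without the 3 arrays of highest GAPDH ratio (0.67, adjusted p = 0.0608). Igf1, a growth factor, differed between its probe sets. One was 1.66 ± 0.21 above Muscle SP (adjusted p = 1.417e-05) and at the floor in marrow, while the one that was brighter over all arrays overlapped with all 3 groups and was 0.18 ± 0.21 from Muscle SP (adjusted p = 0.6808). On the brightest probe set, none of 12 IGF system genes lay above all others or passed the test against Muscle SP. Bmp6 and Gdf10, ligands of the BMP family, were each 1.56 above Muscle SP (standard errors 0.24 and 0.26) and were the 2 of 34 TGF-beta and BMP pathway genes above all others (5.88%). In that list 3 genes were higher and 6 lower than in Muscle SP, with a median of -0.05. The lower genes, named after their values were seen, were Bmp4, Eng, Smad6, Smad7, Id1 and Id3, at -0.88 to -1.26. Sfrp2 and Ccn4, a Wnt antagonist and a Wnt target, were 1.18 ± 0.21 and 1.27 ± 0.25 above Muscle SP, and Egfr 1.85 ± 0.20. No gene of the Notch list lay above or below all others; Notch1 was lower than in Muscle SP (-1.07 ± 0.28, adjusted p = 0.01346).

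Some glial genes also stood above all other arrays. Gpm6b, a membrane proteolipid of nervous tissue, read 12.35, 12.19, 11.69, 13.01 and 12.74 in Muscle MP, against 10.95, 10.57, 7.89, 7.75 and 8.94 in Muscle SP and at most 7.71 in marrow. The Muscle SP arrays were spread over more than 3 log2 units here, yet none reached Muscle MP (3.17 ± 0.46, adjusted p = 6.951e-05). Of 13 measured Schwann cell and glial genes, 3 lay above all others (23.1%): Erbb3, the neuregulin receptor of Schwann cells, at 2.09 ± 0.34 from Muscle SP, Fabp7, a fatty acid binding protein of glia, at 1.98 ± 0.22, and Mal, a myelin proteolipid, at 1.88 ± 0.30. Pmp22, a myelin protein that fibroblasts also express, was 1.56 ± 0.37 above Muscle SP (adjusted p = 0.006725) and overlapped with it. Sox10, the transcription factor that defines these cells, read 9.20 to 10.11 in Muscle MP and 8.56 to 9.89 in Muscle SP and differed from no group past the threshold. Mbp was lower than in marrow (-3.08 ± 0.23 and -3.56 ± 0.23). Against Muscle SP 5 of the 13 were higher and none lower. Sema3b, an axon guidance ligand, was 2.60 ± 0.29 above Muscle SP on its brighter probe set (adjusted p = 1.913e-06) and 0.31 ± 0.23 on the other. Adcy2, an adenylyl cyclase of brain and muscle, read 10.61 to 11.15 in Muscle MP and no more than 8.45 elsewhere.

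A macrophage pattern appeared within muscle, on a background of lower leukocyte RNA than in marrow. C1qb, a chain of complement C1q made by tissue macrophages, read 10.09, 9.99, 10.42, 10.81 and 9.55 in Muscle MP. It was at the floor on all marrow arrays and on 4 of 5 Muscle SP arrays, with 7.61 on Muscle SP 3, and the difference from Muscle SP was 3.28 ± 0.21 (adjusted p = 4.841e-10). A second C1qb probe set, brighter over all arrays, showed no such difference from Muscle SP (0.73 ± 0.31, adjusted p = 0.1369). It read 8.36 to 9.06 in Muscle MP and overlapped with all 3 groups, at 8.81 to 9.74 in Bone marrow SP and 8.61 to 9.73 in Bone marrow MP. C1qa and C1qc, the other chains, were 2.51 ± 0.27 and 1.82 ± 0.20 above Muscle SP and also lay above all others. Mrc1, the mannose receptor of resident macrophages, read 9.60, 9.87, 9.76, 9.92 and 9.32 in Muscle MP and no higher than 7.56 elsewhere. Folr2, a folate receptor of resident macrophages, was 1.90 ± 0.39 above Muscle SP (adjusted p = 0.002138). Of 24 measured monocyte and macrophage genes, 4 lay above all others on their brightest probe set (16.7%, beside 2.25% of all probe sets). These were C1qa, C1qc, Mrc1 and Folr2. On any probe set 5 did, with C1qb. Against Muscle SP 11 were higher and none lower, beside 6.64% and 5.1% of all probe sets. Against Bone marrow MP 4 were higher and 15 lower (20.9% and 25.6% of all probe sets). Against Bone marrow SP 5 were higher and 7 lower (19.9% and 25.1% of all probe sets). The log2 of their summed signal was 14.94 to 15.29 in Muscle MP, 13.05 to 14.35 in Muscle SP and 17.47 to 17.56 in Bone marrow MP.

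Of 10 measured class II antigen presentation genes, 4 were higher and none lower than in Muscle SP (6.64% and 5.1% of all probe sets). Against Bone marrow SP 3 were higher and 3 lower (19.9% and 25.1% of all probe sets). Against Bone marrow MP none was higher and 6 were lower (20.9% and 25.6% of all probe sets). H2-Aa, a class II chain, read 11.14, 11.51, 11.30, 11.19 and 11.71 in Muscle MP, 6.71 to 8.48 in Muscle SP, 10.64, 10.63, 9.86, 7.33 and 6.71 in Bone marrow SP, and 11.70 to 12.12 in Bone marrow MP. The Muscle MP arrays lay above both side populations and overlapped with Bone marrow MP. It was 3.98 ± 0.59 above Muscle SP (adjusted p = 7.818e-05), and its difference of -0.57 ± 0.59 from Bone marrow MP did not pass, except in a fit of these 2 groups alone (adjusted p = 0.00642). Its difference from Bone marrow SP was 2.33 ± 0.59 (adjusted p = 0.002464), a call lost with the GAPDH covariate (1.61, adjusted p = 0.059). No class II gene was above or below all others. Blnk, a B cell adaptor, was 2.63 ± 0.29 above Muscle SP (adjusted p = 1.924e-06) and at -2.46 ± 0.29 from Bone marrow MP (adjusted p = 2.256e-07).

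**Figure D3:**
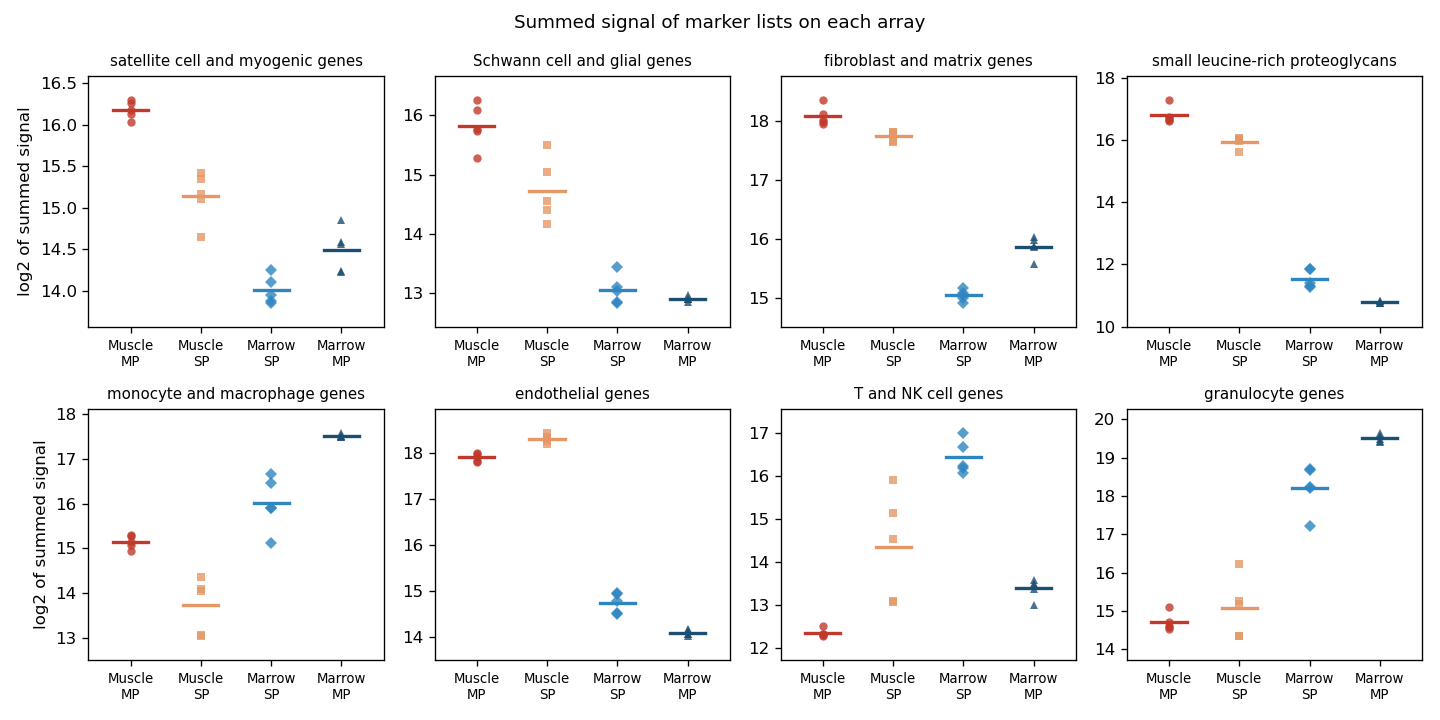
Log2 of the summed linear signal of 8 gene lists on each of the 20 arrays; points are arrays and short lines are means of 5. Muscle MP is the highest group for satellite cell and proteoglycan lists and the lowest for T and NK cell genes, where it spans 12.28 to 12.51.

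The log2 of the summed signal of 32 endothelial genes was higher on every muscle array than in marrow, where it reached at most 14.96. It was lower in Muscle MP (17.79 to 17.99) than in Muscle SP (18.18 to 18.42), without overlap. Of the 32 genes, 26 were higher and 3 lower than in Bone marrow SP (19.9% and 25.1% of all probe sets). Against Bone marrow MP 23 were higher and 3 lower (20.9% and 25.6% of all probe sets). Cdh5, the cadherin of endothelial junctions, read 14.25 to 14.58 in Muscle MP and 14.01 to 14.86 in Muscle SP (-0.05 ± 0.33, adjusted p = 0.9604), and 7.15 ± 0.33 and 7.60 ± 0.33 above the marrow groups. Pecam1, also on the list, was not higher than in marrow. It read 9.38 to 10.47 in Muscle MP, 9.57 to 11.18 in Muscle SP, 10.10 to 10.91 in Bone marrow SP and 10.26 to 10.91 in Bone marrow MP. None of these endothelial genes was above or below all other arrays. Against Muscle SP 1 was higher (Lyve1, a receptor of lymphatic vessels and some macrophages, 2.42 ± 0.27) and 9 were lower, with a median of -0.45; of all probe sets, 5.1% were lower. Selp, P-selectin, read 10.31 to 10.56 in Muscle MP and 12.11 to 13.91 in Muscle SP (-2.58 ± 0.39, adjusted p = 9.24e-05). Abcg2, the dye exporter of side population cells, read 13.38 to 13.74 in Muscle MP and 13.96 or more in Muscle SP. These ranges did not overlap, and the difference of -0.85 ± 0.25 (adjusted p = 0.02796) lost its call in 7 alternatives. They were median scaling, the GAPDH covariate (-0.83, adjusted p = 0.106), and leaving out Muscle SP 4, Muscle SP 5, Muscle MP 1, Muscle MP 2 or Muscle MP 4, with adjusted p-values of 0.0528 to 0.0789 for these 5. Rgs5, a pericyte gene, lay above all others at a low level (7.44 to 8.38) on 1 probe set, except without normalization. Its brighter probe set overlapped with Muscle SP (0.20 ± 0.26, adjusted p = 0.7083). On the brightest probe set none of 18 pericyte and smooth muscle genes separated, and 2 were higher and 1 lower than in Muscle SP.

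Genes below all other arrays were fewer and their gaps narrower. Their median gap was 0.15, and 8 genes had a gap of 1 or more. Muscle SP was again the nearest group for 77 of the 108, with median differences of -0.87, -1.68 and -1.27 from Muscle SP, from Bone marrow SP and from Bone marrow MP. Chosen for lack of overlap, 90, 108 and 102 of them were called in the 3 comparisons. In 7 probe sets Muscle MP lay wholly at the floor, and a further 305 probe sets were tied there and were not counted.

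**Figure D4:**
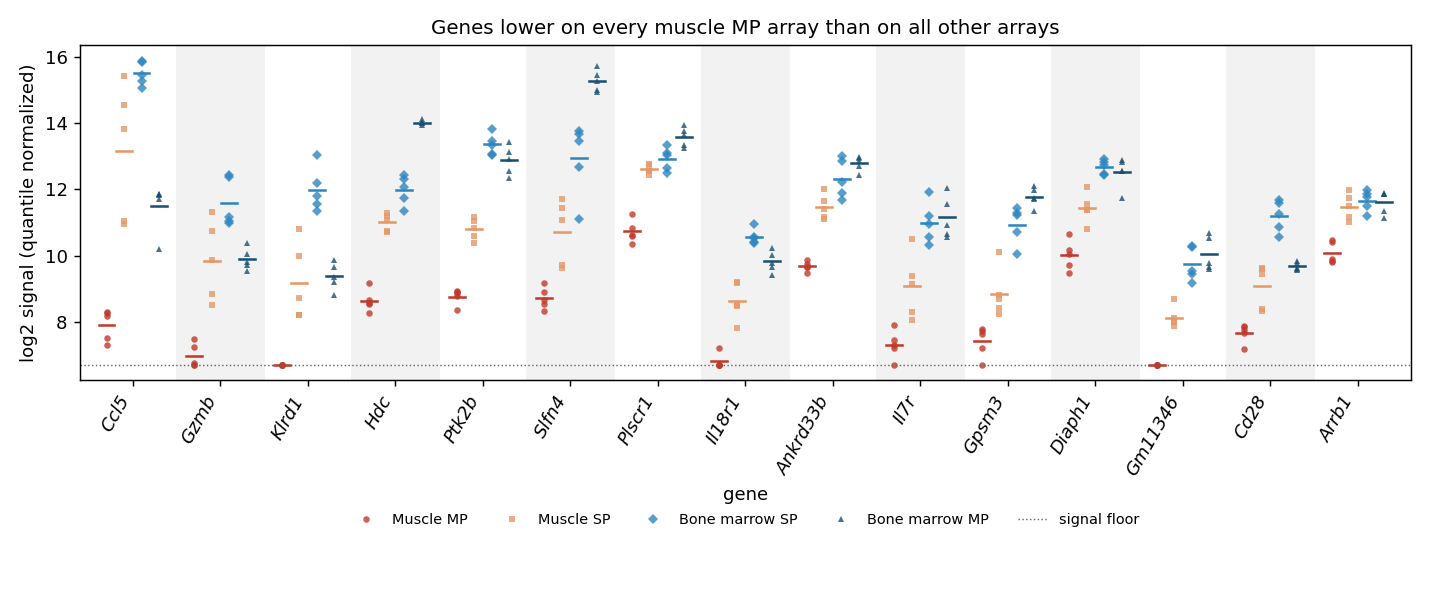
Log2 signal (vertical axis) on each of the 20 arrays for the 15 genes with the largest smallest difference, among genes below all 15 other arrays. Points are arrays, short lines are group means of 5 arrays and the dotted line is the floor of 6.71. For Ccl5 the Muscle MP arrays sit between 7.30 and 8.30 and the lowest other array at 10.21.

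Genes of cytotoxic lymphocytes led this set. Ccl5, a chemokine of T and NK cells, read 8.30, 8.17, 7.52, 7.30 and 8.28 in Muscle MP. In Muscle SP it read 13.81, 14.55, 15.43, 10.96 and 11.04, in Bone marrow SP 15.07 to 15.88 and in Bone marrow MP 10.21 to 11.86. No array overlapped, the gap was 1.91, and the differences were -5.24 ± 0.62, -7.58 ± 0.62 and -3.57 ± 0.62 (adjusted p = 5.743e-06, 9.356e-10 and 4.938e-05). Gzmb, granzyme B, read 7.24, 6.71, 6.76, 6.71 and 7.49 in Muscle MP and 8.50 to 11.33 in Muscle SP, a difference of -2.87 ± 0.42 (adjusted p = 7.673e-05). Klrd1, the CD94 chain of NK receptors, was at the floor on all 5 Muscle MP arrays and at 8.20 or more on every other array. Cd28, the T cell costimulatory receptor, was at -1.42 ± 0.26 and Il7r, the interleukin 7 receptor chain, at -1.76 ± 0.39 from Muscle SP. The Il7r call was lost with the GAPDH covariate (-1.33, adjusted p = 0.0796) and with the floor at the 40th percentile (-1.09, adjusted p = 0.0528). Of 23 measured T and NK cell genes, 5 lay below all others, beside 1.05% of all probe sets. Against Muscle SP 8 were lower and none higher, beside 5.1% and 6.64% of all probe sets. In Muscle MP 9 of the 23 were wholly at the floor, and the log2 of their summed signal was 12.28 to 12.51 against 13.07 to 15.91 in Muscle SP.

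Many other blood cell genes were lower in Muscle MP than in marrow, with few below every array. Hdc, the enzyme that makes histamine in mast cells and basophils, read 9.17, 8.68, 8.58, 8.55 and 8.26 in Muscle MP and 10.72 or more elsewhere. Its differences were -2.36 ± 0.21 from Muscle SP and -5.36 ± 0.21 from Bone marrow MP (adjusted p = 6.638e-08 and 1.619e-15). Slfn4, a Schlafen gene of myeloid cells, was at -4.22 ± 0.44 from Bone marrow SP and -6.56 ± 0.44 from Bone marrow MP. Il18r1, a receptor for interleukin 18, was at the floor on 4 of 5 Muscle MP arrays and at 7.81 or more elsewhere. Ptprc, the CD45 antigen of all leukocytes, read 8.65 to 9.19 in Muscle MP and 7.58 to 11.66 in Muscle SP. It overlapped with Muscle SP (-0.92 ± 0.50, adjusted p = 0.2685) and was at -4.89 ± 0.50 and -5.50 ± 0.50 from the marrow groups. Of 24 pan-leukocyte genes 1 lay below all others, Rac2, with a gap of 0.02, while 23 were lower than in each marrow group. All 26 granulocyte genes were lower than in Bone marrow MP and 24 lower than in Bone marrow SP, but none differed from Muscle SP past the threshold. Ngp, a neutrophil granule gene, read 8.94, 11.14, 6.71, 6.71 and 6.71 in Muscle MP, and 12.44, 13.87, 11.60, 6.71 and 6.71 in Muscle SP, so both groups held arrays at the floor. Car2, carbonic anhydrase of red cell precursors, and Lmo2, a blood stem cell factor, were the members of their lists below all others. The blood stem and progenitor list did not follow Lmo2 as a whole. Of its 23 measured genes, 6 were higher and 13 lower than in Bone marrow SP (19.9% and 25.1% of all probe sets). Against Bone marrow MP 11 were higher and 7 lower (20.9% and 25.6% of all probe sets). The log2 of its summed signal was 17.19 to 17.31 in Muscle MP and 17.17 to 17.49 in Muscle SP. In Bone marrow SP it was 16.54 to 17.22 and in Bone marrow MP 15.35 to 15.72. That sum includes genes bright in both muscle groups, such as Abcg2 and Cd34.

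Signalling and cytoskeletal genes completed the set. Ptk2b, a focal adhesion kinase family member of blood cells, read 8.92, 8.77, 8.37, 8.90 and 8.87 in Muscle MP and 10.38 to 11.18 in Muscle SP (-2.04 ± 0.22, adjusted p = 1.434e-06). Plscr1, a phospholipid scramblase induced by interferon, was at -1.87 ± 0.20, Ankrd33b at -1.79 ± 0.23 and Arrb1, beta-arrestin 1, at -1.39 ± 0.22 from Muscle SP, though a second, dimmer Arrb1 probe set was at -0.09 ± 0.40. Diaph1, a formin that nucleates actin, was at -1.42 ± 0.25 on the probe set that separated, and at -0.59 ± 0.20 and -0.47 ± 0.27 on the other 2. Gpsm3, a G protein regulator of leukocytes, was at -1.44 ± 0.31 from Muscle SP. Gm11346 was at the floor on every Muscle MP array (at most -1.42 ± 0.25), a call lost with the floor at the 40th percentile (-0.16, adjusted p = 0.744).

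Proliferation genes had lower summed signals in both muscle populations than in marrow. For DNA replication genes the log2 sum was 15.06 to 15.45 in Muscle MP and 15.17 to 15.38 in Muscle SP. It was 16.35 to 16.60 in Bone marrow SP and 16.11 to 16.42 in Bone marrow MP. For mitosis genes it was 14.92 to 15.21 in Muscle MP and 15.02 to 15.36 in Muscle SP. In Bone marrow SP it was 16.74 to 16.94 and in Bone marrow MP 16.17 to 16.29. Of 37 DNA replication genes 28 were lower than in Bone marrow SP and 30 lower than in Bone marrow MP, and of 34 mitosis genes 31 and 29 were lower. Of all probe sets, 25.1% and 25.6% were lower. Against Muscle SP 8 replication genes were higher and none lower, beside 6.64% and 5.1% of all probe sets. Among the higher were Uhrf1 (1.62 ± 0.34, adjusted p = 0.002926) and Mcm5 (1.03 ± 0.27, adjusted p = 0.01534), a subunit of the replicative helicase. The Mcm5 call was lost without Muscle MP 1 (0.85, adjusted p = 0.0522), in a fit of the 2 groups alone (adjusted p = 0.0706) and with the GAPDH covariate (0.80, adjusted p = 0.148). Smc4, a condensin subunit, and Kif23, a kinesin of the midbody, lay below all others, at -0.85 ± 0.16 and -1.04 ± 0.26 from Muscle SP. Of 37 immediate early and stress genes, 2 lay above all others (5.41%), and 4 were higher and 6 lower than in Muscle SP, with a median of -0.14. The separated genes were Mt2, metallothionein 2, at 1.29 ± 0.31, and Dnajb1, an HSP40 cochaperone, at 1.15 ± 0.25 from Muscle SP; the Mt2 call was lost without normalization (0.88, adjusted p = 0.0661).

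Membership at the edge of the rule rested on small values. Just inside it above were Tnfrsf11b, Cxcl9 and Errfi1, with gaps of 7e-04, 0.0030 and 0.0035, and just outside were Hadhb, Zfp105 and Gpaa1, with gaps of -0.0038, -0.0049 and -0.0060. Below, Nfkbia, Hspa4 and Smg5 were inside by 0.0019, 0.0048 and 0.0062, and Kifc1, Tbxas1 and Tsx were outside with gaps of -3e-04, -0.0031 and -0.0053. All 20 genes above with the largest differences kept their separation in every alternative in which they passed the filter, as did 13 of the 15 genes below. Il18r1 and Gm11346 lost it with the floor at the 40th percentile. These genes were picked for large differences in the same data, and leaving out arrays eases the rule, so this is a description. Ankrd1 passed the filter only through the 5 Muscle MP arrays. Leaving out any 1 Muscle MP array kept 225 of the 232 probe sets above.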

How the data were processed

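The 20 arrays carry Affymetrix mouse probe sets, and total RNA was measured in 4 groups of 5. The authors deposited 1 linear signal intensity per probe set and array; the software and scaling behind these intensities are not given in any source read here. The trimmed mean (2% cut) of every array was 1501, and no deposited intensity was negative.

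From these values, 66 control probe sets were dropped, leaving 12422. Array medians spanned 318 to 612, so the arrays were quantile normalized, values under the 25th percentile (a signal of 105) were raised to it, and log2 was taken. A probe set was kept when 5 or more of 20 arrays exceeded the floor (10310, of which 9095 had a single symbol, for 7295 genes). Gene symbols came from the platform annotation. All 4 groups entered 1 limma fit (limma 3.58.1, R 4.3.3) with 3 contrasts, Benjamini-Hochberg adjustment and a threshold of 0.05. The procedure was tested on simulated data. Counting was done in Python 3.11.15 and figures were drawn with matplotlib 3.10.9. The number of arrays limits the precision.

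Named genes were the 20 above and 15 below all other arrays with the largest smallest-of-3 difference, up to 4 separated members of each gene list (or up to 2 called members per contrast where none was separated), a fixed set of marker genes, and the 3 probe sets nearest the rule on each side. A gene is shown by its brightest probe set unless another met the rule. The comparison, its members and the gene lists were chosen with earlier results of these data known. Alternatives changed the normalization, floor, filter, moderation, weights, samples fitted and covariates, and left out each array in turn. Pax7, Chodl, Prelp, Tnmd, Comp, Thbs4, Cilp, Ly6a and Hbb-b1 were not analysed here.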

Additional observations from a re-analysis of the deposited data

Results flagged for a closer look

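Single arrays standing apart from the rest of their group were looked for in 425 groups of 5 values of the named genes and quality measures, and 24 were found by Dixon's ratio. Chance alone gives about 1 in 20 groups.

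In Muscle MP, 4 values stood apart. Muscle MP 3 was the highest for Cxcl9, an interferon-induced chemokine, at 12.02, and the lowest for Chad at 9.26 and Ptk2b at 8.37. Muscle MP 5 was the lowest for Lyve1 at 9.36.

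In Muscle SP, replicate 1 was the lowest for Dag1 at 10.28, replicate 2 the lowest for Hspa4 at 9.97 and the highest for Mal at 9.09 and Pou2af1 at 7.99, and replicate 3 the highest for Gm11346 at 8.69.

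In Bone marrow SP, replicate 1 was the lowest for Gpaa1 at 8.08. Replicate 2 was the highest for Cav1 at 10.18 and Pmp22 at 8.49, and the lowest for Zfp105 at 8.49. Replicate 4 was the lowest for Sdc4 at 8.02, and replicate 5 the lowest for Blnk at 8.30 and the highest for Hey1 at 14.43.

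In Bone marrow MP, replicate 2 was the lowest for Diaph1 at 11.72, Ltf at 15.66 and Ptprc at 13.88. Replicate 3 was the lowest for Matn4 at 7.07 and replicate 4 the lowest for Ccl5 at 10.21. Replicate 5 was the lowest for Gsn at 9.87 and the highest for Fcrla at 11.96 and Top2a at 11.15.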

How the results depend on the processing

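Of 232 probe sets above all other arrays, 196 remained without normalization, 209 with median scaling and 215 with the floor at the 40th percentile. Of 108 below, 80, 75 and 95 remained. A filter on the mean signal at the median of all probe sets left 151 above, since fewer probe sets were tested. Leaving out the 3 arrays of highest GAPDH ratio (1 of Muscle SP, replicate 1, and 2 of Bone marrow SP, replicates 4 and 5), an alternative chosen after seeing the data, gave 296 above and 167 below; fewer arrays must then be cleared. Leaving out 1 array, which also eases the rule, gave 232 to 282 above and 109 to 153 below. It gave 543 to 742 higher and 359 to 586 lower than Muscle SP, 1908 to 2112 and 2274 to 2741 against Bone marrow SP, and 2018 to 2220 and 2351 to 2784 against Bone marrow MP. The lowest of each of these last 6 counts came without Muscle MP 4. No named difference past the threshold changed sign under the alternatives run.

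The replicate numbers in the labels were not treated as pairing the samples, since not every same-numbered pair correlated above 0.1 (r of -0.09 to 0.26 over the deviations from group means). Against Bone marrow MP 4 of 5 pairs did. By best match, 1, 1 and 3 of 5 Muscle MP arrays correlated best with their own number in Muscle SP, in Bone marrow SP and in Bone marrow MP. With the replicate block, 765 probe sets were higher and 631 lower than in Muscle SP, 2118 and 2772 against Bone marrow SP, and 2227 and 2789 against Bone marrow MP. Signals at the floor limit the smallest level and the largest difference that could be measured.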

Other observations

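The groups in this paragraph were put together after their members' values were seen and are descriptive. Among 16 measured imprinted genes, 3 lay above all other arrays and 5 were higher and none lower in Muscle MP than in Muscle SP. Mest, a hydrolase-like protein expressed from the paternal allele, was 1.89 ± 0.30 above Muscle SP. Peg3, a paternally expressed zinc finger protein, was 2.82-fold above it on its brightest probe set (log2 standard error 0.31), while another Peg3 probe set was at 0.18 ± 0.18. Meg3, a maternally expressed long RNA, was 1.89 ± 0.25 above Muscle SP on the probe set that separated. Another Meg3 probe set was 3.35 ± 0.52 above Muscle SP and overlapped with it. Of 28 measured genes of collagen folding and the secretory pathway, 8 lay above all others, among them Kdelr3, a retrieval receptor of the endoplasmic reticulum (1.26 ± 0.22 above Muscle SP). Serpinh1, the collagen chaperone HSP47, also separated, but its difference from Muscle SP did not pass the test (0.64 ± 0.28, adjusted p = 0.1454).

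The CC chemokine genes went both ways. Of 12 measured, Ccl7, Ccl11 and Ccl12, which are adjacent in the RefSeq gene order, lay above all other arrays and Ccl5 below. Ccl11, eotaxin, was 2.20 ± 0.25 above Muscle SP, and Ccl12 was at the floor on all 15 other arrays (at least 1.92 ± 0.16 higher). The developmental transcription factors Zic1 and En1, also named after their values were seen, were 2.03 ± 0.29 and 1.38 ± 0.18 above Muscle SP, and both lay above all other arrays.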
